A study of Mus musculus with 6 samples.

Results

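The 10 genes described here encode parts of the cytoskeleton, and all 10 were among the 20160 gene rows measured in tumours of the mouse sarcoma line S-180. They were chosen by symbol: the non-muscle actins Actb and Actg1, the actin-binding proteins Pfn1, Cfl1, Flna and Myh9, the tubulins Tubb5, Tuba1a and Tuba1b, and vimentin (Vim). One group of tumours came from BALB/c nude mice that had received RGLS before the cells were injected under the skin (3 libraries). The other was labelled model (3 libraries), and both carry their label's name below. Judging from the title, RGLS stands for spores of the medicinal fungus Ganoderma lucidum with the outer coat removed. BALB/c nude mice lack a thymus and so most T cells, and both groups carried the same tumour line. The labels used here give no dose, duration or age, and nothing in them ties each sample to a mouse of its own, so p-values measure only the spread between these samples. In whole tumours, fewer cells of a type and less RNA per cell cannot be told apart.

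Actin and tubulin form the filaments that give a cell its shape, move it and pull its chromosomes apart at division. Actin monomers are handed to growing ends by profilin and removed from old filaments by cofilin, while filamin ties filaments into networks and non-muscle myosin pulls on them. Microtubules are built from pairs of alpha and beta tubulin, and vimentin is the intermediate filament protein of mesenchymal cells, the kind from which sarcomas arise. The coding parts of actins, and of alpha tubulins, are close to identical between family members, and the mouse genome carries many processed pseudogenes of them, intronless copies made from mRNA.

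Values are TMM-scaled CPM, reads scaled to a common library size, not divided by gene length, from which whole reads were recovered. The rows held 418102 to 458641 reads in the RGLS libraries and 369453 to 387933 in the model libraries, which was 1.79% to 1.95% and 2.09% to 2.21% of the authors' effective library sizes. One read was worth 0.0390 to 0.0467 CPM in RGLS and 0.0566 to 0.0575 CPM in model. The sources used here do not say how strand was treated, and 1799 of the 2319 rows tested below overlapped an exon of a gene on the other strand. Of the 10 genes, 8 had no exon of a gene on the other strand over them. Tuba1b was overlapped over 87 of its 1875 exonic bases by Gm41396, and Cfl1 over 468 of 2844 by Snx32. Reads from those overlaps cannot be assigned to one gene of the pair. Of the 4 markers listed for the mesenchymal line (Vim, Col1a1, Fn1 and Sparc), all had reads, and their summed level was 2.29 to 4.56 CPM in RGLS and 0.913 to 1.96 CPM in model.

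How far a read can be assigned to one of these genes depends on its sequence. The first 90 bases of the coding sequence, from the start codon, are shown for Actg1, Cfl1 and relatives of them (GENCODE vM21, GRCm38), because pseudogene copies of both turned out to hold most of the reads. Capitals mark bases that differ from the first sequence of each set. The first set is Actg1 (chr11:120348002-120348091, minus strand), Actb (chr5:142905597-142905686, minus strand) and Gm12715 (chr4:103563402-103563491, plus strand), a processed pseudogene.
Actg1: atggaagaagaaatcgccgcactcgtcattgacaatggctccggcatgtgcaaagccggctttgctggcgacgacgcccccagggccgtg
Actb: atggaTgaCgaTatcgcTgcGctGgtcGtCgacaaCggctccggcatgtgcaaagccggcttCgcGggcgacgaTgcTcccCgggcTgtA
Gm12715: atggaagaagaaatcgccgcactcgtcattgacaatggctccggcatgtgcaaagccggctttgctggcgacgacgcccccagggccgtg
Actb differed from Actg1 at 16 of these 90 bases and was 88.7% identical over the 1128 coding bases. Gm12715 had no difference in this stretch and 4 in the 1128 bases (99.6% identical).

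The second set is Cfl1 (chromosome 19, plus strand), where this stretch is spliced from more than one exon, and the processed pseudogene Gm6180 (chr8:42246911-42247000, plus strand).
Cfl1: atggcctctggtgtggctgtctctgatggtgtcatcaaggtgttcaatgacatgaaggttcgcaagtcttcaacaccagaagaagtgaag
Gm6180: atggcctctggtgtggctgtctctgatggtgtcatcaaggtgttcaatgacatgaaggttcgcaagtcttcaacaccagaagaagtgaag
Gm6180 was identical to Cfl1 in this stretch and differed at 6 of the 498 bases compared (98.8% identical).

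Over whole mRNAs, the share of 50-base words that also occur in a transcript of another gene, on either strand, was 83.1% for Tuba1b, 75.5% for Tuba1a, 56.7% for Actg1, 20.5% for Cfl1 and 14.2% for Actb. It was 1.12% for Myh9, 0.115% for Tubb5 and 0 for Vim, Pfn1 and Flna. The 4 genes with the largest shares were the 4 with fewest reads, at 43, 44, 10 and 20 reads over the 6 libraries in that order. Actb had 693 reads and Tubb5 574, while Pfn1, Vim, Flna and Myh9 had between 157 and 220.

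**Figure D1:**
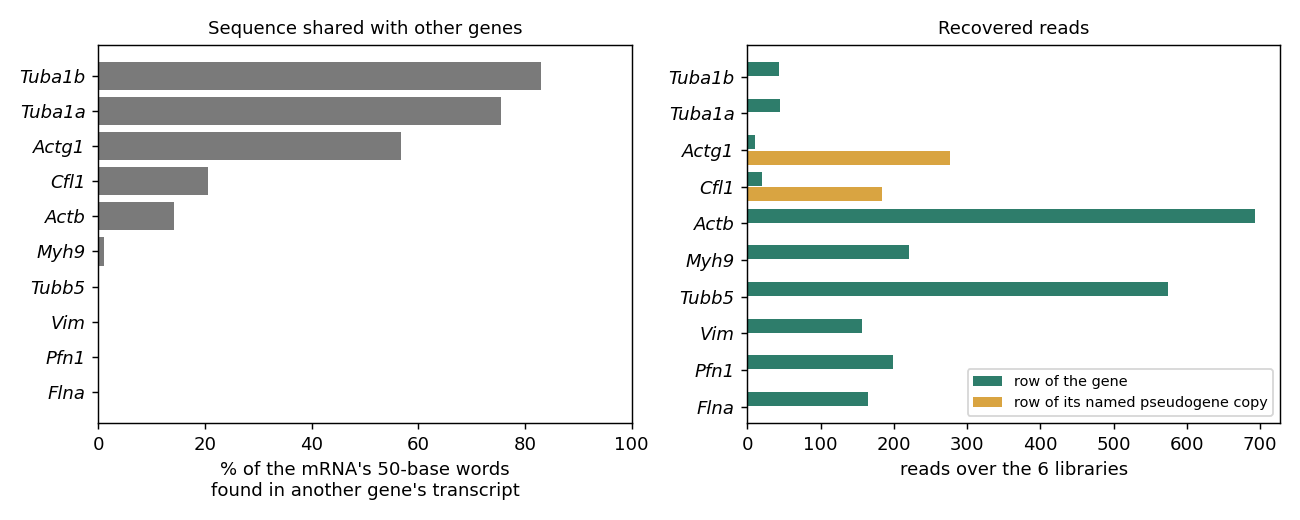
Left, the share of each mRNA's 50-base words found in a transcript of another gene. Right, reads summed over the 6 libraries for each gene's row (green) and, for Actg1 and Cfl1, for the row of the named pseudogene (yellow), which held 276 and 184 reads against 10 and 20.

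Per kilobase of annotated exon, Actb was the highest of the 10 genes in both groups, with 2.69 ± 0.806 CPM per kb in RGLS and 1.29 ± 0.786 in model (SD, n = 3 each). Tubb5 was next, at 1.91 ± 0.751 CPM per kb in RGLS and 0.681 ± 0.433 in model. Actb was above Tubb5 in all 6 libraries, by 0.782 ± 0.265 CPM per kb in RGLS and 0.605 ± 0.355 in model. Pfn1 followed, with 0.753 ± 0.322 in RGLS and 0.545 ± 0.128 in model. Vim had 0.339 ± 0.0908 and 0.173 ± 0.0374 CPM per kb in RGLS and model. Tuba1a, Tuba1b, Flna and Myh9 lay between 0.186 and 0.258 CPM per kb in RGLS and between 0.0589 and 0.172 in model, and their order was within the spread. Actg1 and Cfl1 were lowest in RGLS, at 0.0367 and 0.0563 CPM per kb. In model Flna, at 0.0589, stood beside them, with Actg1 at 0.0217 and Cfl1 at 0.0601. Rows with many shared words can lose reads to their relatives, so this order is of rows and not of mRNAs.

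**Figure D2:**
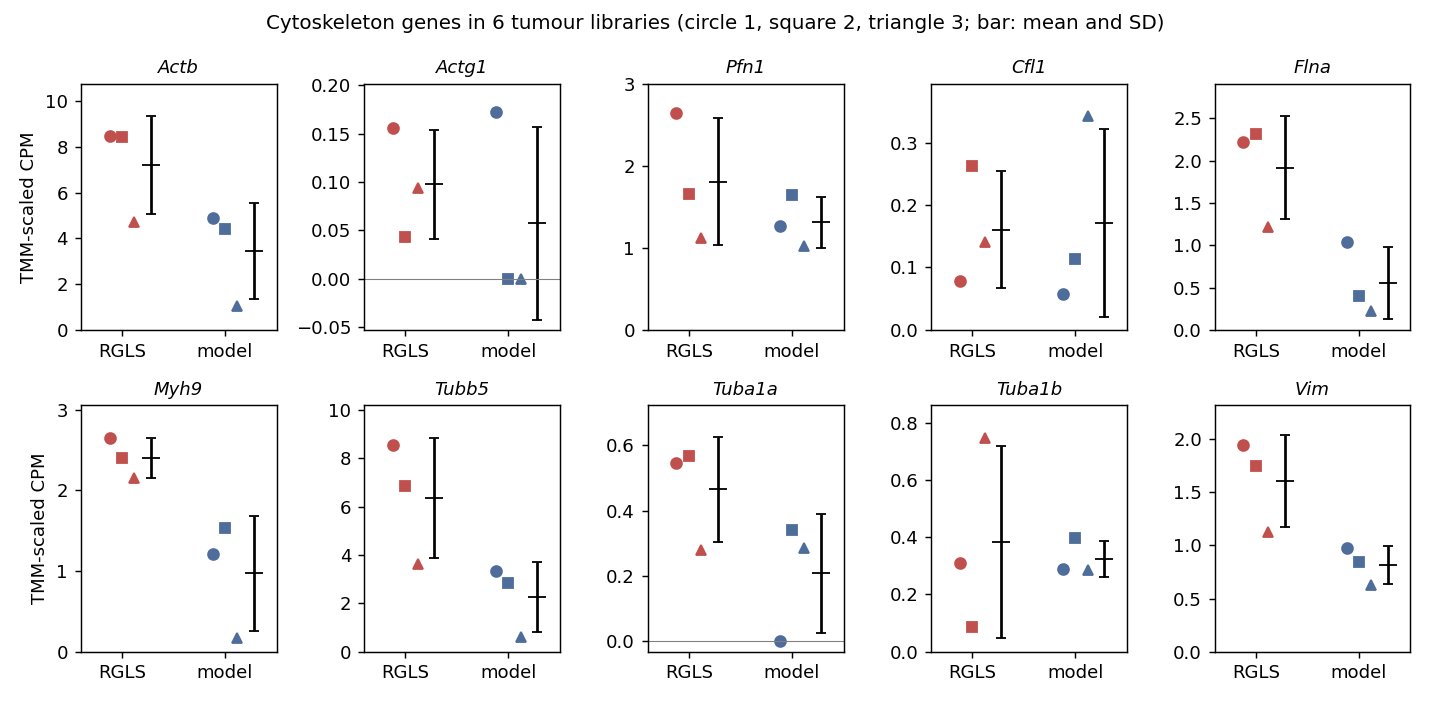
TMM-scaled CPM of each gene in each library, RGLS left and model right. Circles, squares and triangles are libraries 1, 2 and 3 of a group, and the bar is the mean and SD. Tubb5, Vim, Flna and Myh9 had all 3 RGLS libraries above all 3 model libraries, and library 3 was the lowest of its group in these and in Actb and Pfn1.

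The actins came first in the comparison of RGLS with model. Actb (chromosome 5, 142903115 to 142906754), the main cytoplasmic actin, had 8.49, 8.43 and 4.72 CPM in RGLS 1 to 3, against 4.89, 4.41 and 1.03 CPM in model 1 to 3. The groups overlapped, since RGLS 3 lay just under model 1, and library 3 was low in both groups. On the log2(CPM + 1) scale it was higher by 1.0 (SE 0.32) in RGLS, short of the threshold (limma adjusted p = 0.0976). That test covered the 2319 rows that reached 1 CPM in 3 or more libraries, of which 0.949% were called higher and 0.517% lower at an adjusted p of 0.05.

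Actg1 (chromosome 11, 120345690 to 120348542), the other cytoplasmic actin, had 4, 1 and 2 reads in RGLS and 3, 0 and 0 reads in model. A count of 0 allows up to 3 reads, so no difference was detectable at these read numbers. Its ratio of reads after scaling to library size was 1.75, with an exact 95% interval of 0.400 to 10.5 that covers counting error only. The row of Gm12715 (chromosome 4, 103563402 to 103564529), whose sequence is shown above, had 93, 89 and 42 reads in RGLS and 24, 17 and 11 in model. That was 3.62, 3.89 and 1.96 CPM in RGLS, against 1.38, 0.961 and 0.628 CPM in model, with no overlap between the groups. Gm12715 rose by 1.05 on the log2 scale, with an SE of 0.23 (limma adjusted p = 0.0350). It held 96.5% of the reads of the pair. Gm12715 aligned to Actg1 over 1128 bases, while the Actg1 mRNA has 1952, so only reads from the shared part could come from either. Why the Actg1 row held so few reads was not tested. Its call was kept in 10 of 18 alternatives (adjusted p between 0.000271 and 0.241) and was lost without model 2 (0.0864), model 3 (0.163), RGLS 1 (0.241) or RGLS 2 (0.143).

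Pfn1 (chromosome 11, 70651850 to 70654644), profilin, which feeds actin monomers to growing filaments, had 2.65, 1.66 and 1.12 CPM in RGLS, against 1.27, 1.64 and 1.03 CPM in model. RGLS 1 alone stood above the rest, and the groups overlapped. The difference on the log2 scale, 0.25 (SE 0.23), was the smallest of the tested genes (limma adjusted p = 0.517).

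Cfl1 (chromosome 19, 5490455 to 5495201), cofilin, which severs old filaments, had 2, 6 and 3 reads in RGLS and 1, 2 and 6 in model, a scaled ratio of 0.919 (counting interval 0.346 to 2.51). Snx32, the gene opposite, was also low, with 11 reads over the RGLS libraries and 16 over the model libraries. The copy Gm6180 (chromosome 8, 42246911 to 42247408) had 71, 51 and 27 reads in RGLS and 11, 21 and 3 in model. In CPM this was 2.77, 2.23 and 1.26 in RGLS and 0.633, 1.19 and 0.171 in model, without overlap. The log2 fold change of Gm6180 was 0.91 (SE 0.25), short of the threshold (limma adjusted p = 0.0645). As with Actg1, the copy held most reads of the pair, 90.2%. Both copies were found by alignment after the values of the genes had been seen.

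Flna (chromosome X, 74223461 to 74249820), filamin A, which cross-links actin filaments and ties them to the membrane, had 2.22, 2.32 and 1.22 CPM in RGLS, against 1.04, 0.396 and 0.228 CPM in model. All RGLS libraries were above all model libraries, by a narrow margin between RGLS 3 and model 1. Flna had the smallest adjusted p of the 10 genes, at 0.92 on the log2 scale (SE 0.23; limma adjusted p = 0.0543). By reads it had 136 in RGLS and 29 in model, a scaled ratio of 3.53 (counting interval 2.35 to 5.46). Flna was the only one of the 10 genes that DESeq2 called on the recovered reads of the same rows (adjusted p = 0.0169, with 2.16% of rows called higher and 0.172% lower). edgeR did not call it (adjusted p = 0.0724, with 0.949% of rows called higher and 0.474% lower).

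Myh9 (chromosome 15, 77760587 to 77842175), the heavy chain of non-muscle myosin IIA, had 2.65, 2.40 and 2.15 CPM in RGLS, against 1.21, 1.53 and 0.171 CPM in model. The 3 RGLS libraries lay close together (coefficient of variation 10.4%), while model 3, with 3 reads, was far under the other model libraries (73.2%). On the log2 scale Myh9 was 0.86 higher in RGLS (SE 0.25), which missed the threshold (limma adjusted p = 0.0788).

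Tubb5 (chromosome 17, 35833921 to 35838306), a widely expressed beta tubulin, had 8.57, 6.86 and 3.65 CPM in RGLS, against 3.34, 2.83 and 0.628 CPM in model. The groups did not overlap, but RGLS 3 was nearer to model 1 than to RGLS 2. With a log2 fold change of 1.23 (SE 0.32), it had the largest change of the 6 tested genes and missed the threshold (limma adjusted p = 0.0563).

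The alpha tubulins were under 1 CPM in all libraries and were not tested. Tuba1a (chromosome 15, 98949837 to 98953703) had 14, 13 and 6 reads in RGLS and 0, 6 and 5 in model. The scaled ratio was 2.26 (counting interval 1.11 to 4.95), and edgeR over the 10637 rows with at least 10 reads did not call it (adjusted p = 0.547), while 1.18% of those rows were called higher and 0.320% lower. Tuba1b (chromosome 15, 98931425 to 98934565) had 8, 2 and 16 reads in RGLS and 5, 7 and 5 in model, with a ratio of 1.15 (0.601 to 2.26), and here RGLS 3 was the highest library. Gm41396, the antisense gene opposite Tuba1b, had 33 reads in RGLS and 34 in model. The 4 tubulin pseudogenes found among the rows held 0 to 4 reads in any library, so no row comparable to Gm12715 was seen for Tuba1a or Tuba1b.

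Vim (chromosome 2, 13573927 to 13582826) had 1.95, 1.75 and 1.12 CPM in RGLS, against 0.978, 0.848 and 0.628 CPM in model. The groups did not overlap, and Vim entered the test only through its 3 RGLS libraries, so its place among the tested rows carries no weight. It was 0.51 higher on the log2 scale in RGLS (SE 0.20, limma adjusted p = 0.154).

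**Figure D3:**
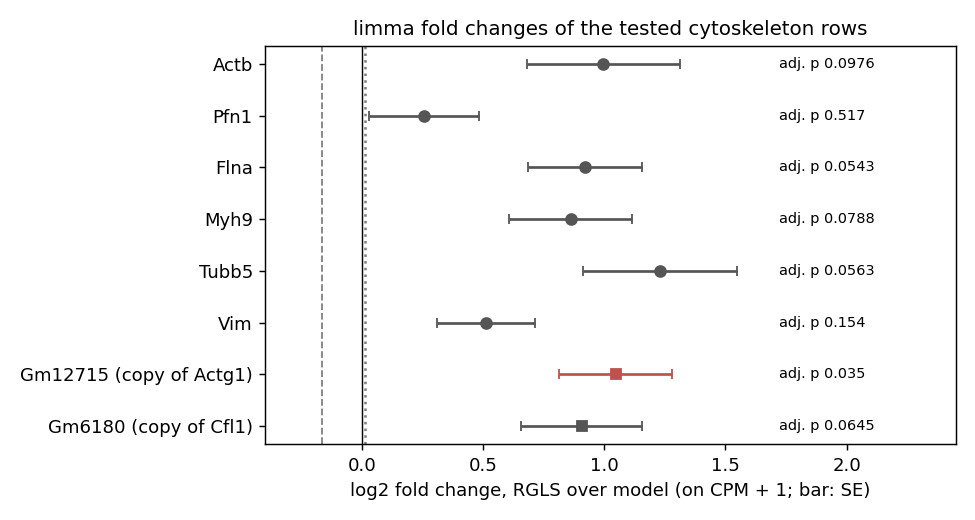
Log2 fold change of RGLS over model with its SE for the 6 tested genes (circles) and the 2 pseudogene copies (squares); red marks an adjusted p under 0.05. The dashed line is the median of all tested rows (-0.17) and the dotted line that of rows with no gene opposite (0.01); all 8 estimates lie to the right of both, and only Gm12715 passed the threshold.

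In all, 6 of the 10 genes reached the tested level and limma called none of them. Vim was tested only through the libraries in which it was high, as were 38 of all tested rows. It is therefore left out of the counts over 5 genes below, while counts over 6 include it. At an unadjusted p under 0.05, 4 of the other 5 (all but Pfn1) were higher in RGLS, as were 6.04% of all tested rows and 107 of the 2281 that did not enter in that way. edgeR on the same rows called 0 of the 6 and DESeq2 called 1. In 3 of the 5 (Tubb5, Flna and Myh9) every RGLS value exceeded every model value. This held for 4.53% of all tested rows, for 67 of those 2281, and for 13.0% of the 484 tested rows that, like these genes, had no gene opposite. limma called 2.89% of those 484 rows higher, and of the 1799 rows with a gene opposite it called 0.389%, while 2.22% had all RGLS values above all model values. In the other direction, 17.2% of all tested rows were lower at an unadjusted p under 0.05 and 22.1% had all RGLS values below all model values; none of the 6 did either. The median log2 fold change was 0.89 over the 6 and 0.92 over the 5, with -0.17 over all tested rows, 0.01 over tested rows without a gene opposite and -0.19 over those with one.

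Single libraries decided the calls. Without RGLS 3, 4 of the 6 rose: Tubb5 (limma adjusted p = 0.00504), Flna (0.00926), Actb (0.0217) and Myh9 (0.0465). Leaving out RGLS 3 also raised the calls over all rows, to 4.44% higher and 4.57% lower. Without model 1, Tubb5 (limma adjusted p = 0.0355) and Flna (0.0305) rose, with 1.55% of rows called higher and 0.474% lower. Without model 3, none of the 6 was called and Actb stood at 0.50 on the log2 scale. Without a filter on low values, limma called the 4 genes higher that it called without RGLS 3, with 1.03% of all rows called higher and 0.332% lower.

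Library 3 stood apart in both groups. Model 3 was the lowest model library in 6 of the 6 tested genes, which held for 29.6% of all tested rows and 44.4% of those without a gene opposite. RGLS 3 was the lowest RGLS library in 6 of the 6, which held for 21.1% and 41.1% of those rows. Summed over the 10 genes, the level was 27.6, 24.4 and 15.2 CPM in RGLS 1 to 3 and 13.2, 12.5 and 4.62 CPM in model 1 to 3. The share of annotated reads that fell in rows with no gene opposite moved with it, at 21.3%, 18.9% and 15.6% in RGLS and 13.8%, 14.4% and 12.4% in model. Set against those reads, the 10 genes had 74.0, 68.5 and 50.7 reads per 10000 in RGLS and 45.4, 42.3 and 17.1 in model, so all RGLS sums were above all model sums on this scale too, and model 3 was again lowest. Gene by gene on this scale, Actb (15.7 in RGLS 3, 16.8 in model 1) and Pfn1 overlapped. Tubb5 (12.1 in RGLS 3, 11.4 in model 1), Vim, Flna and Myh9 did not. The share of other rows separated on this scale was not computed. With library sizes taken from rows without a gene opposite, a scaling chosen after the data were seen, Tubb5 (limma adjusted p = 0.00181), Flna (0.0175), Actb (0.0225) and Myh9 (0.0321) rose. This scaling called 3.06% of all rows higher and 10.7% lower. Its log2 fold changes were smaller than in the main fit, at 1.05 for Tubb5, 0.80 for Flna, 0.80 for Actb and 0.73 for Myh9. Another scaling, also chosen after the data were seen, levelled the median across libraries separately for rows with and without a gene opposite. It called 0 of the 6 higher, with limma adjusted p = 0.0942 for Tubb5, 0.0998 for Flna, 0.160 for Myh9 and 0.173 for Actb. Over all rows it called 23 higher and 10 lower. The part of the library share in the levels was not tested further.

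**Figure D4:**
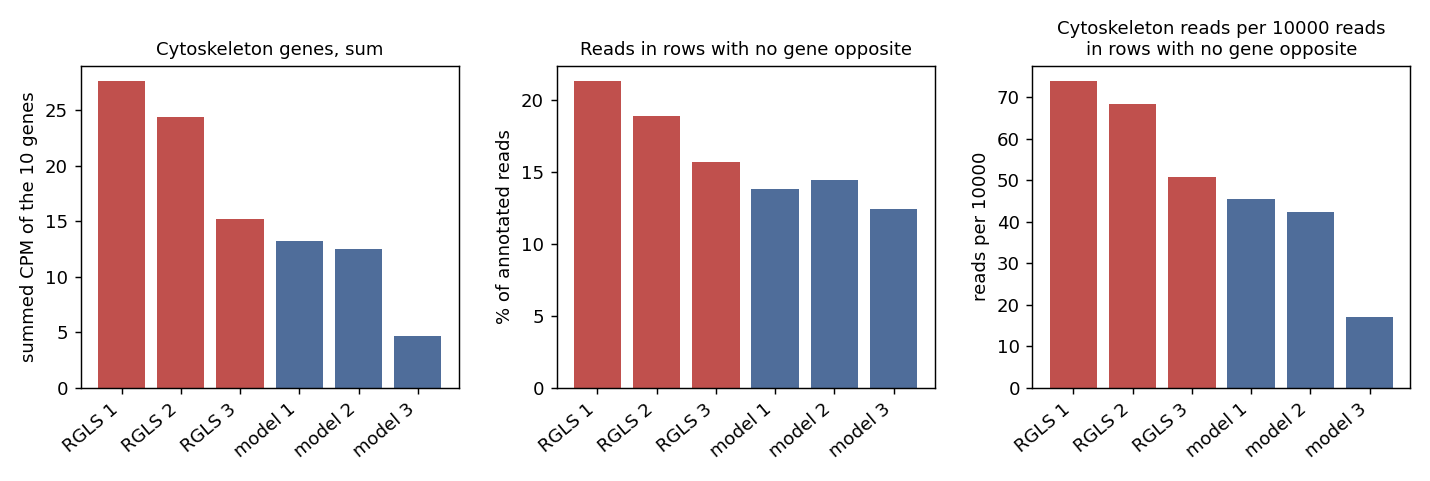
Per library, RGLS left (red) and model right (blue): the summed CPM of the 10 genes, the percentage of annotated reads in rows with no gene opposite, and the reads of the 10 genes per 10000 reads in such rows. RGLS 1 was highest and model 3 lowest in each panel.

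The 6 tested genes varied together but not in one order of libraries: RGLS 2 was above RGLS 1 in Flna, and model 2 above model 1 in Myh9 and Pfn1. Over the 15 pairs, Pearson's r of log2(CPM + 1) across the 6 libraries ranged from 0.62 to 0.98 with a median of 0.88, given as a description, since the points share library and depth. Ratios within a library do not depend on its scaling. Per Actb read, Tubb5 had 1.01, 0.813 and 0.772 reads in RGLS and 0.682, 0.641 and 0.611 in model. Flna had 0.261, 0.275 and 0.257 reads per Actb read in RGLS and 0.212, 0.0897 and 0.222 in model. These 2 genes stood higher against Actb in all RGLS libraries than in any model library. The share of all tested rows that did so was not computed, so these ratios are given as values only. Flna had 7 reads in model 2 and 4 in model 3. Vim had 0.229, 0.207 and 0.238 reads per Actb read in RGLS and between 0.192 and 0.611 in model, and Myh9 and Pfn1 likewise overlapped. In model 3 the ratios rest on 18 Actb reads. Actb made up 30.7% to 34.6% of the reads of the 10 genes in RGLS and 22.2% to 37.0% in model.

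The rows with the most similar profile over the 6 libraries, by r with the mean profile of the 6 tested genes, were Itgb1 (0.99), which encodes the integrin beta 1 chain, mt-Co1 (0.99), a subunit of cytochrome c oxidase, and the processed pseudogene Vcp-rs (0.99). Prrc2a (0.99), Pcbp1 (0.98), an RNA-binding protein gene, and Polr2a (0.98), the largest subunit of RNA polymerase II, followed. Itgb1 had 3.43, 2.88 and 1.64 CPM in RGLS and 1.55, 1.36 and 0.685 CPM in model. Polr2a had 2.69, 2.49 and 1.73 CPM in RGLS and 1.15, 1.02 and 0.171 CPM in model. Such a profile was therefore not limited to cytoskeleton genes: 45 of the 1453 named rows compared (3.10%) had an r over 0.9, and 5 of the 6 named here also had no gene opposite.

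A wider list of 110 cytoskeleton genes, set up in 7 classes, showed how the 10 genes sat within the system. Of these, 105 had a row and 18 were tested, of which limma called 3 higher, 0 lower and 15 neither (the background being 0.949% higher and 0.517% lower). The 3 were Acta1, the skeletal muscle actin, Des, the intermediate filament protein of muscle, and Nefm, a neurofilament protein of neurons, all proteins of particular cell types rather than of every cell. Acta1 had 2.38, 2.71 and 1.92 CPM in RGLS and 0.0575, 0 and 0.0571 in model (limma adjusted p = 6.11e-05). Des, overlapped by Gm15179, had 1.79, 2.05 and 1.17 CPM in RGLS and 0.115, 0.0566 and 0 in model (limma adjusted p = 0.0012). Nefm, overlapped by Nefl, had 2.10, 2.75 and 2.76 CPM in RGLS and 0.115, 0.113 and 0.0571 in model (limma adjusted p = 6.11e-05). RGLS 3 was the lowest RGLS library in Acta1 and Des, and in Nefm it was level with RGLS 2. All 3 rows reached 1 CPM in the RGLS libraries alone and so were tested only through the group in which they were high, which means that the count of 3 cannot be read against the background.

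The other classes held smaller differences. Of actin assembly and turnover 2 of 31 listed genes were tested and neither was called. Arpc1b, a subunit of the Arp2/3 complex overlapped by Pdap1, had 5.41 ± 0.904 CPM in RGLS and 7.15 ± 0.776 in model (SD, n = 3 each, limma adjusted p = 0.221). Cap1, which recycles actin monomers (opposite Ppt1), had a log2 fold change of 0.01 (SE 0.20). Of the cross-linkers 4 of 21 were tested and none was called. Tpm4, a tropomyosin overlapped by Gm26586, had 1.41 ± 0.641 CPM in RGLS and 2.05 ± 0.432 in model, and Tagln, transgelin (opposite Gm48529), had 1.49 ± 0.512 and 1.71 ± 0.509 CPM in RGLS and model. None of the 9 listed myosins and light chains was tested.

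Of the proteins that link actin to the membrane, 4 of 9 were tested and none was called. Tln1, talin (opposite Creb3), had 2.32 ± 0.238 CPM in RGLS and 2.76 ± 0.478 in model, and Vcl, vinculin (opposite Ap3m1), had 2.22 ± 0.911 and 2.70 ± 0.645 CPM in RGLS and model. Of 22 other tubulins and microtubule proteins, 4 were tested and none was called. Tbcd, a tubulin folding cofactor overlapped by B3gntl1, had 4.97 ± 0.897 CPM in RGLS and 5.61 ± 0.254 in model, and Tuba4a, an alpha tubulin (opposite Stk16), had 2.50 ± 0.448 and 2.66 ± 0.224 CPM in RGLS and model. Picked after their values were seen, Msn, Actn4 and Tubb6 stood on the other side. Msn, moesin (opposite Gm24718), had 1.99, 1.88 and 1.03 CPM in RGLS and 0.403, 1.02 and 0.285 CPM in model (limma adjusted p = 0.0836). Actn4, an alpha-actinin (opposite Capn12), had 2.14, 2.53 and 1.17 CPM in RGLS and 1.15, 0.679 and 0.685 CPM in model (limma adjusted p = 0.104). Tubb6, a beta tubulin, had 65, 86 and 30 reads in RGLS and 27, 23 and 16 in model (limma adjusted p = 0.148). In each of the 3, RGLS 3 was the lowest RGLS library, and without RGLS 3 all 3 rose (limma adjusted p = 0.0198 for Msn, 0.0217 for Actn4 and 0.0257 for Tubb6). Plec, plectin, which links filament systems and has no gene opposite, had 220 reads over the RGLS libraries and 84 over the model libraries (limma adjusted p = 0.143). The 18 tested rows had a median log2 fold change of 0.28. It was 0.57 over the 6 without a gene opposite, Acta1 among them, and -0.097 over the 12 with one, Des and Nefm among them. Over all tested rows without and with a gene opposite it was 0.01 and -0.19. Over the 15 of the list other than Acta1, Des and Nefm it was 0.01. Of those 15, 0 were called, 5 were higher at an unadjusted p under 0.05 and 2 had all RGLS values above all model values.

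Markers of other cell types were read in the same libraries. The 9 skeletal muscle markers, of which 8 had a higher mean in RGLS, summed to 7.87, 8.43 and 7.39 CPM in RGLS and 3.22, 2.49 and 3.54 CPM in model. Myh4, the fast muscle myosin, had 33 reads over the RGLS libraries and 0 over the model libraries. Neuron and Schwann cell markers (6 of 6 with a higher mean in RGLS) summed to 2.69 to 3.41 CPM in RGLS and 0.0571 to 0.403 CPM in model. Macrophage markers summed to 11.5 to 13.2 CPM in RGLS and 14.3 to 16.3 CPM in model, most of it from Csf1r, the only one of its 5 rows with a lower mean in RGLS. Csf1r is overlapped by Hmgxb3 over 873 of its 5774 exonic bases, and reads from that overlap cannot be assigned to either gene alone. Smooth muscle, fibroblast, endothelial and red cell lists overlapped between the groups. Of their markers, Dcn, Rgs5, Tie1 and Hbb-bs had no read in RGLS and 1 or 2 reads in model, and Myh11, Cnn1 and Pdgfrb had 1, 2 and 5 reads in RGLS and none in model. The part of these cells in the cytoskeleton levels was not tested.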

How the data were processed

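RNA-seq of 3 RGLS and 3 model tumours was used. Per the labels' protocols, the RNA came from an EASYspin extraction and the SMARTER mRNA-Seq kit gave the libraries. Bowtie2, HTSeq and mm10 stand in the submitters' processing notes with no version or role given. The authors deposited a table of TMM-scaled CPM values for 20160 symbols, as the authors named the table and as the values show. All values (100%) were whole multiples of 1 read within 0.001, so reads were recovered.

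The main test was limma 3.58.1 (R 4.3.3), 2-sided and with an intensity trend, on values as log2(CPM + 1). Its p-values were adjusted by Benjamini and Hochberg's method over the 2319 rows that reached 1 CPM in 3 or more libraries, and the threshold was 0.05. Such fold changes understate the change of low rows. Alternatives were other pseudocounts (0.1 and 5), filters and scalings, no trend, a replicate block, edgeR 4.0.16 and DESeq2 1.42.0 on recovered reads, and leaving out each library. Tests were checked on simulated data. No pair of libraries agreed within sampling noise. Positions, exonic lengths and opposite genes (at least 50 exonic bases) are from GENCODE vM21 (GRCm38, the assembly of mm10), where 19732 symbols matched. Copies were transcripts aligned by blastn 2.17.0 at 90% identity or more over at least 300 bases. The named rows were the 10 genes, their opposite rows and pseudogene copies, rows of the wider list that were called or among the 2 most abundant tested of their class, and the 6 rows most alike in profile. The genes and lists were chosen with earlier results of these data known.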

Additional observations from a re-analysis of the deposited data

How the results depend on the processing

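Low read numbers limit these results: the 10 genes had 81 to 709 reads per library together, and 4 of them stayed under 1 CPM. All rows together held 1.79% to 2.21% of effective library sizes of 17377445 to 25668458. Why that share was so small was not tested, so the values are levels of rows and may not be levels of mRNAs. limma called 0 of the 6 tested genes higher. The count was 1 with DESeq2 and 3 with edgeR over rows with at least 10 reads, where Actb (adjusted p = 0.0325), Tubb5 (0.003) and Flna (0.0218) were called. It was 4 (Actb, Tubb5, Flna and Myh9) both without a filter and with library sizes from rows without a gene opposite, and 4 with the replicate block. The fits over rows with at least 10 reads and with such library sizes were chosen after the data were seen. Without 1 library it was 0 to 4. No alternative called any of the genes lower or reversed a direction, and Vim and Pfn1 were called in none of 18 alternatives. Leaving out a library moved the log2 fold change of Actb between 0.50 and 1.27, of Tubb5 between 0.79 and 1.53, of Flna between 0.77 and 1.13 and of Myh9 between 0.52 and 1.08. Gm12715 was lost with the same median in every library (adjusted p = 0.0660), TMM factors from the rows (0.0516), pseudocount 0.1 (0.0533) and no intensity trend (0.0658). Gm6180 was called in 6 of 18. The wider list had 3 called higher, and 6 without a filter and with the replicate block, and 3 to 6 without 1 library.

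Over all rows, 22 were called higher and 12 lower. The counts were 10 and 4 with the same median in every library, 14 and 3 with TMM factors from the rows, 50 and 4 with DESeq2, 9 and 4 with pseudocount 0.1, 208 and 67 without a filter, 4 and 84 with a filter of 10 CPM, and 11 and 3 without an intensity trend. They were 71 and 247 with library sizes from rows without a gene opposite, 126 and 34 with edgeR over rows with at least 10 reads, and 111 and 120 with the replicate block. Without 1 library they were 7 to 103 higher and 3 to 106 lower. None of the 10 genes reached the filter of 10 CPM. The labels state no pairing by replicate number. The deviations of libraries with the same number from their group means had correlations of 0.00441, -0.00556 and 0.378 over the 2319 rows. With 3 libraries in a group these deviations depend on each other, so the correlations cannot exclude a pairing. The calls under the replicate block are given as counts only. RGLS 3 and model 3 correlated best with each other, while those numbered 1 and 2 did not.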

Other observations

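Some cytoskeleton rows under the tested level also had every RGLS read count above every model read count. They were picked from the wider list after their values were seen and are given as values. These counts are not scaled, and effective library sizes were larger in RGLS. The share of all rows under the tested level with such a separation was not computed. Tubb4b, another widely expressed beta tubulin, whose row is overlapped over 121 bases by Fam166a, had 54, 53 and 17 reads in RGLS and 11, 11 and 1 in model, a scaled ratio of 4.05 with an exact 95% counting interval of 2.58 to 6.63. edgeR over rows with at least 10 reads called it higher (adjusted p = 0.0227), as did limma without a filter (0.00053). As in Tubb5, library 3 was lowest in both groups. Map4, a microtubule-associated protein, had 29, 32 and 17 reads in RGLS and 6, 12 and 4 in model (edgeR adjusted p = 0.178). Actr3, a subunit of the Arp2/3 complex, had 13, 27 and 12 reads in RGLS and 7, 4 and 5 in model (edgeR adjusted p = 0.326).

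Rows opposite cytoskeleton genes, also picked after their values were seen, included some at far higher levels than the genes themselves. Ap3m1, opposite the vinculin gene Vcl, had 131 CPM in RGLS and 208 in model and fell (limma adjusted p = 0.00436). Gm36026, opposite the keratin gene Krt8, had 15.6 CPM in RGLS and 24.6 in model (limma adjusted p = 0.0646). Gm17122, opposite Coro1c, an actin-binding coronin, had 37.3 CPM in RGLS and 43.3 in model (limma adjusted p = 0.320).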
